A study of Rattus norvegicus with 12 samples.

Results

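Acta2, Tagln and Vim encode 3 cytoskeletal proteins by which activated fibroblasts and vascular smooth muscle are commonly recognised, and their transcripts were followed through sham, infarcted and patched rat hearts. The genes were chosen by name and located by their rat Ensembl IDs, ENSRNOG00000058039 for Acta2, ENSRNOG00000017628 for Tagln and ENSRNOG00000018087 for Vim. All 3 were found among the 19955 genes of the deposited table, and all 3 passed the filter on low values (mean signal 1 or more), which left 17091 genes to test. The hearts came from wild-type Sprague Dawley rats in 3 groups: sham, an operation without an infarct (2 libraries that could be assigned, of 4 samples in the labels); MI, an untreated myocardial infarction (4 libraries); and Patch, an infarct with a patch sewn to its edge with silk (4 libraries). The labels state neither the rats' age nor the time between surgery and sampling, nor what the patch was made of. They call the tissue heart, and the title of the series names left ventricular myocardium. The labels do not say that the libraries of a group came from separate rats, so p-values measure the spread between these libraries, which may be in part technical.

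Acta2 encodes smooth muscle alpha-actin, the actin of the contractile filaments in vascular smooth muscle. A fibroblast that takes on this actin is called a myofibroblast, the contractile, matrix-producing cell of a healing infarct scar. Tagln encodes transgelin (SM22 alpha), a small actin-binding protein that marks the same contractile cells. Vim encodes vimentin, the intermediate filament protein of mesenchymal cells, which is made by fibroblasts, endothelial cells, smooth muscle cells and leukocytes whether or not they contract, and little by mature cardiomyocytes. Serum response factor, working with myocardin-related coactivators, binds CArG boxes (runs of A and T between CC and GG) in the control regions of contractile genes such as Acta2 and Tagln, and transforming growth factor beta is a well-known inducer of both.

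Promoter windows were matched for 2 of the 3 genes, Acta2 and Vim, and are shown as context for a contractile and a general mesenchymal gene. Whether their letters bear on the values below was not tested. The windows run from 250 bases before to 50 bases after the start of each gene and are taken from RefSeq on build GRCr8. That of Acta2 lies at chr1:241172454-241172753 on the minus strand and that of Vim at chr17:81577011-81577310 on the plus strand. Capitals mark motif matches on either strand.
Acta2: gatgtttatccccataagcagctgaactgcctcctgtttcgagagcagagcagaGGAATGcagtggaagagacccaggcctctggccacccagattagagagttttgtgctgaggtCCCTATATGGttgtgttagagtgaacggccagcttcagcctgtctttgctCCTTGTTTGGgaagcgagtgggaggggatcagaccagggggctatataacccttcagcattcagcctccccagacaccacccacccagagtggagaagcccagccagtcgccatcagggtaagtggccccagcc
Vim: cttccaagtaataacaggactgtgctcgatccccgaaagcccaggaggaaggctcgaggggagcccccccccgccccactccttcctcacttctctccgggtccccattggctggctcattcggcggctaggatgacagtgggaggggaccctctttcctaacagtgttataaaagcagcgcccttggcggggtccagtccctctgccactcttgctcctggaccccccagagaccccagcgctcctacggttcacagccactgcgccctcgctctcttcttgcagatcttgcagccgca
The Acta2 window held 2 CArG boxes that departed from the motif at 1 inner base, CCCTATATGG beginning at -134 and CCTTGTTTGG at -84, counted from the gene's start. It held no exact CArG box. Among 33469 promoter windows of the same length, 0.532% held at least 2 such near matches, 8.1% held at least 1, and 1.64% held an exact CArG box. The Acta2 window also held 1 MCAT element (CATTCC, here on the opposite strand) at -196, a motif found in 14.2% of windows. The Vim window held no match to the CArG box, exact or with 1 inner base off, to MCAT or to the AP-1 motif TGANTCA (in 7.33% of windows), which says only that these letters are not in this stretch. No 2 matches overlapped. These are matches of letters, and no binding was measured.

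Library depth was 11420710 to 14110864 recovered reads, and each value of the 3 genes rested on at least 906 reads. One MI library, MI2, stood apart, with 5474 genes at 0 against 2400 to 3335 in the other 9, so the tests of the 3 genes and their ratios and the Pearson correlations among them are also given without it. Values are library-scaled reads and are not corrected for transcript length, so levels are compared between libraries and never between the 3 genes. How reads shared by the near-identical actin genes were assigned, and whether strand was used, is not given in the sources used here, so Acta2 is uncertain to that extent and reads of an antisense partner cannot be told apart.

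Acta2 was highest in the infarcted hearts and lowest in the patched ones. Its signal was 1724 and 2103 in the sham libraries. In MI it was 5275 in MI1, 2470 in MI2, 4211 in MI162 and 1994 in MI165, and in Patch 1183, 1340, 1670 and 1585 in P695, P697, P699 and P985. The MI group was thus split, with MI1 and MI162 far above every sham library while MI165 lay between the sham values. All 4 Patch libraries lay below both the MI and the sham libraries. Group means with their SD were 1913 ± 268 for the 2 sham libraries, 3488 ± 1526 for the 4 MI libraries and 1444 ± 224 for the 4 Patch libraries.

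Tagln had the same order of groups and nearly the same order of libraries, with sham2 and MI165 exchanging places. It stood at 1604 and 2039 in sham. In MI it was 6591 in MI1, 2702 in MI2, 4199 in MI162 and 2121 in MI165, and in Patch it was 1018 in P695, 1206 in P697, 1574 in P699 and 1539 in P985. Here the 4 MI values lay above both sham values, though MI165 exceeded the higher sham library, sham2, by little, and the 4 Patch values again lay below all others. The means were 1822 ± 307 (sham, SD, n = 2), 3903 ± 1994 (MI, SD, n = 4) and 1334 ± 269 (Patch, SD, n = 4).

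Vim was also highest in MI but did not share the low position of Patch against sham. It was at 8702 and 8697 in the sham libraries. It reached 21830, 16675, 18844 and 13028 in MI1, MI2, MI162 and MI165. In the Patch libraries it was 7913 in P695, 9920 in P697, 12989 in P699 and 8926 in P985. The MI and sham values did not overlap, MI and Patch were separated only by the small step between MI165 and P699, and the Patch values straddled the sham values. The means were 8700 ± 3.51 (sham, SD, n = 2), 17594 ± 3706 (MI, SD, n = 4) and 9937 ± 2194 (Patch, SD, n = 4).

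**Figure D1:**
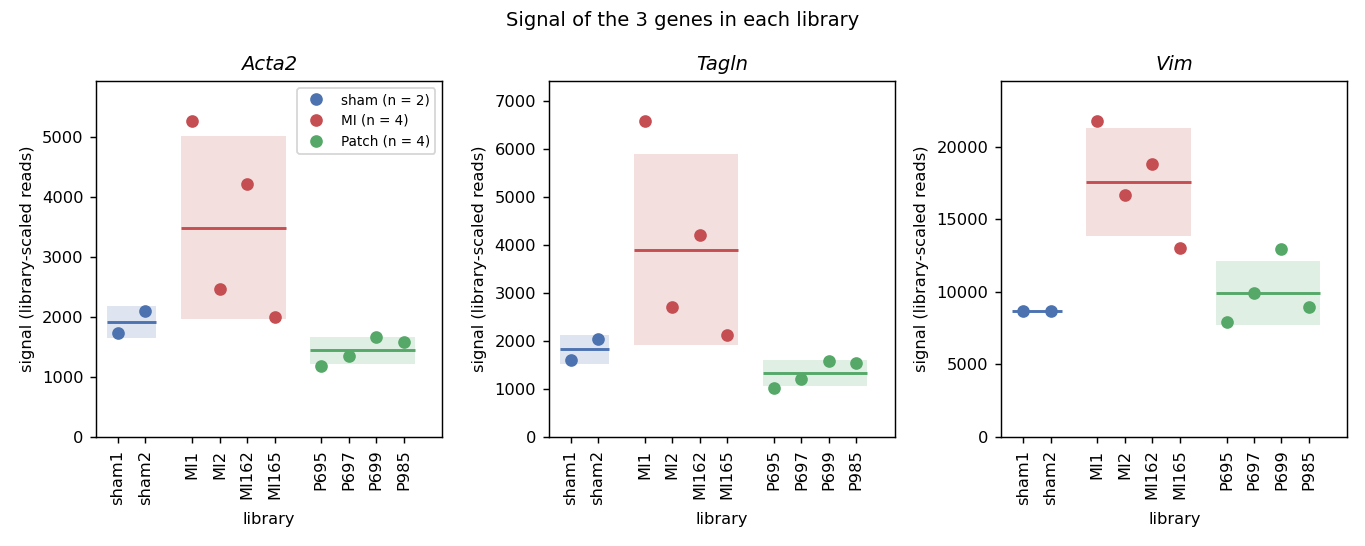
Signal (library-scaled reads, linear axis from 0) of Acta2, Tagln and Vim in each sham, MI and Patch library; points are libraries, lines group means and shaded bands the mean ± 1 SD. MI1 and MI162 carry the high Acta2 and Tagln values (4199 to 6591), while the Patch libraries lie lowest for both genes and around the sham level for Vim.

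The genes also differed in how much they scattered within a group. In MI the SD on the log2(signal + 1) scale was 0.65 for Acta2 and 0.72 for Tagln, above the median of 0.49 over all genes tested, and 0.32 for Vim, below that median. The highest MI library had 2.64 times the Acta2 signal and 3.11 times the Tagln signal of the lowest, against 1.68 times for Vim. Within Patch the SDs were 0.23, 0.30 and 0.30 for Acta2, Tagln and Vim, where the median gene had 0.25. The 2 sham libraries differed 1.22-fold in Acta2 and 1.27-fold in Tagln, whereas their Vim values differed by less than those of most genes, with only 3.49% of genes having a smaller SD.

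Untreated infarction was compared with sham to ask whether the contractile and mesenchymal cytoskeleton transcripts differ after an infarct. Vim rose, with a mean 2.02 times that of sham and a difference of 0.99 on the log2(signal + 1) scale (SE 0.27; 95% interval 0.39 to 1.59; adjusted p = 0.0342 in limma), higher in 4 of 4 MI libraries. Tagln had a mean 2.14 times that of sham and a log2 difference of 0.97 (SE 0.38), higher in 4 of 4 libraries, but did not pass the threshold of 0.05 (limma adjusted p = 0.102; 95% interval 0.15 to 1.80). Acta2 did not pass either, at a log2 difference of 0.76 (SE 0.34; 95% interval 0.03 to 1.50; adjusted p = 0.148 in limma), with 3 of 4 MI libraries above both sham libraries. In bulk tissue, more cells of a type and more RNA per cell cannot be told apart.

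So 1 of the 3 genes was called in MI against sham, and it was higher. Of all 17091 genes tested, 15.4% were called and 7.3% were called higher. Without regard to p, the MI values lay wholly above the sham values for 2 of the 3 genes and for 17.1% of all genes tested. The median log2 difference of the 3 genes was 0.97, against 0.01 for all genes tested, and 85.2% of genes had a smaller difference than Vim, 84.9% than Tagln and 80.6% than Acta2. The Vim call was lost without sham1, sham2, MI162, P697 or P985 (limma adjusted p 0.189, 0.194, 0.0687, 0.0573 and 0.0590; range over the 20 alternatives 0.000785 to 0.194) and held without MI2 (0.0196), where Acta2 and Tagln again did not pass (0.0744 and 0.0556). Acta2 and Tagln passed without MI165, the MI library lowest in both (limma adjusted p 0.0494 and 0.0408). Tagln also passed with sample weights (limma adjusted p 0.0446) and in DESeq2 (adjusted p 0.0293). Acta2 was called in 1 and Tagln in 3 of the 20 alternatives. With sham and MI alone in the model, the Vim call was lost too (limma adjusted p 0.132).

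Patched infarcts were compared with untreated infarcts to ask whether these transcripts differ with the patch. All 3 genes fell. Tagln fell by 1.43 on the log2 scale (SE 0.31; 95% interval -2.11 to -0.76; adjusted p = 0.0184 in limma), its MI mean being 2.93 times its Patch mean. Acta2 fell by 1.18 (SE 0.27; 95% interval -1.78 to -0.57; adjusted p = 0.0230 in limma), with an MI mean 2.41 times that of Patch. Vim fell by 0.82 (SE 0.22; 95% interval -1.32 to -0.33; adjusted p = 0.0375 in limma), with an MI mean 1.77 times that of Patch. Each of the 3 was lower in 4 of 4 Patch libraries than in any MI library.

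Of all genes tested in this comparison, 13.2% were called and 5.45% were called lower, and the Patch values lay wholly below the MI values for 7.79%. The median log2 difference of the 3 genes was -1.18, against 0.00 for all genes tested. Only 4.90% of genes had a lower difference than Tagln, 7.28% than Acta2 and 12.7% than Vim. MI serves in this comparison as in the one with sham, so a chance high value in an MI library would act on both. These calls held without MI2 (limma adjusted p 0.00806 for Acta2, 0.00624 for Tagln and 0.0208 for Vim), but those of all 3 genes were lost without MI162, P695, P697 or P985 (0.0525 to 0.130), and that of Vim also without MI1, sham1 or sham2 (0.0623 to 0.0632). Vim was also not called without the filter on low values (limma adjusted p 0.0511) or with MI and Patch alone in the model (0.0654). Over the 20 alternatives the adjusted p ran from 0.000395 to 0.0824 for Acta2, 9.16e-05 to 0.0672 for Tagln and 0.00102 to 0.130 for Vim.

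Patched infarcts were compared with sham to ask how far the transcripts lay from those of hearts without an infarct. None of the 3 genes passed the test. Acta2 had a log2 difference of -0.41 (SE 0.34; 95% interval -1.15 to 0.33) and Tagln one of -0.46 (SE 0.38; 95% interval -1.29 to 0.36), while Vim had one of 0.17 (SE 0.27; 95% interval -0.44 to 0.77). All 3 adjusted p-values were 1 in limma, and with 2 sham libraries the intervals leave room for a Tagln level in Patch 2.44 times lower or 1.29 times higher than in sham. In limma 0 of 17091 genes were called (0%), with 524 at an unadjusted p under 0.05, edgeR called 0 and DESeq2 called 15, none of them these 3. The Patch values nevertheless lay wholly below the sham values for Acta2 and Tagln, as they did for 9.37% of all genes tested. For Vim they overlapped with the sham values. The intervals above come from a model that also holds the MI libraries. With sham and Patch alone, the unadjusted limma p was 0.0293 for Acta2, 0.0406 for Tagln and 0.413 for Vim. In that fit 8.64% of genes had an unadjusted p under 0.05. The adjusted p of Acta2 and Tagln there was 0.541 and 0.556 in limma.

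**Figure D2:**
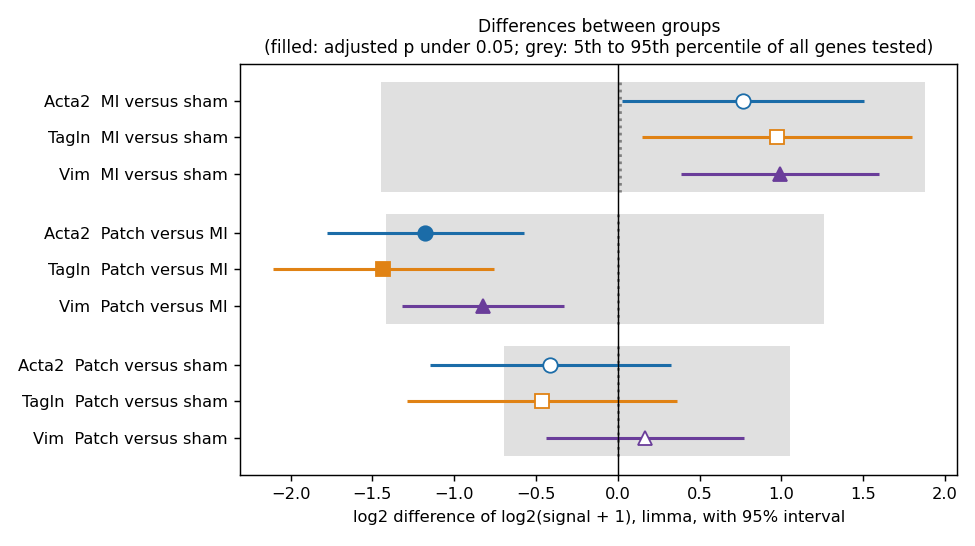
Log2 differences of Acta2, Tagln and Vim between groups from limma on log2(signal + 1), with 95% intervals; filled symbols passed an adjusted p of 0.05, grey blocks span the 5th to 95th percentile of all 17091 genes tested and dotted lines mark their median. All 3 genes are called lower in Patch than in MI (-1.43 to -0.82), Vim alone is called in MI against sham, and none in Patch against sham.

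How closely the genes moved together was followed over the 10 libraries. Acta2 and Tagln kept nearly the same order in all of them (Pearson r = 0.994, permutation p = 2e-05, the smallest that 100000 permutations can give; Spearman rho = 0.988, permutation p = 4e-05; adjusted over 3 pairs 6e-05 and 0.00012). The correlation was 0.994 without MI1 and MI162, the libraries farthest from the median, 0.995 without MI2 and 0.995 over the 6 sham and Patch libraries alone. Once the group means were taken away, the deviations of the 10 libraries still correlated at 0.985. The values of a pair come from the same library and share its scaling. The permutations here and for Vim below shuffled all 10 libraries without regard to group. Their p-values therefore include the differences between groups, and no permutation within groups was made.

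Vim followed the contractile genes less closely. With Acta2 its r was 0.873 (permutation p = 0.0014, adjusted 0.0014) and its rho 0.733 (permutation p = 0.02, adjusted 0.02). With Tagln its r was 0.885 (permutation p = 0.00082, adjusted 0.0012) and its rho 0.794 (permutation p = 0.008, adjusted 0.012). Without MI1 and MI162 these Pearson correlations were 0.651 and 0.696, and over the 6 sham and Patch libraries 0.170 and 0.190. Those 6 join 2 groups set apart in opposite directions (Patch against sham: Acta2 -0.41, Tagln -0.46, Vim 0.17). The low values therefore do not show how Vim follows either gene within a group. Without MI2 they were 0.888 and 0.892, and once the group means were taken away the deviations of the 10 libraries correlated at 0.805 with either gene. P699 had the highest Vim signal outside MI with Acta2 below both sham libraries. Within Patch, though, it was the highest library for Acta2, Tagln and Vim alike. Its log2 deviations from the Patch mean were 0.22, 0.26 and 0.41. The 2 sham libraries differed in Acta2 (1724 and 2103) at nearly the same Vim level (8702 and 8697). Whether the correlations of the pairs differ from one another was not tested.

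**Figure D3:**
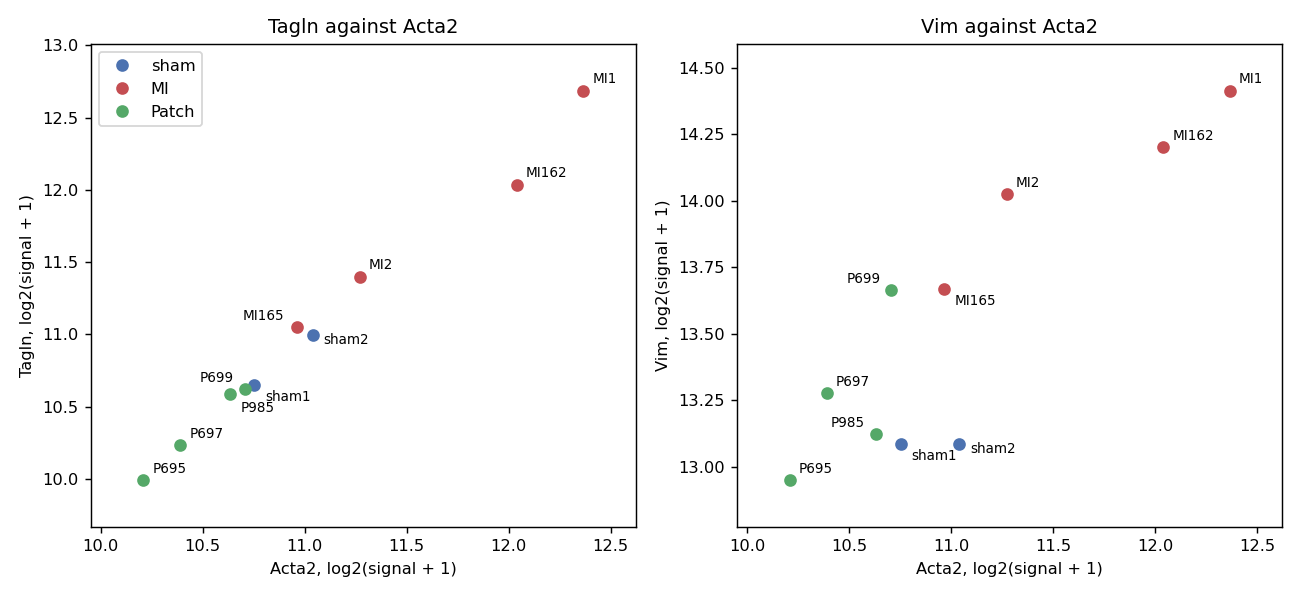
Tagln (left) and Vim (right) against Acta2, each as log2(signal + 1), with 1 point per library coloured by group. Tagln and Acta2 lie along 1 line through all 3 groups (r = 0.994). For Vim the sham and Patch libraries scatter (r = 0.170 over those 6, which join 2 groups with different means).

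The ratio of 2 genes within a library shows whether they changed by unequal amounts, whatever the scaling of that library. Acta2 over Tagln was 1.07 and 1.03 in sham, 0.800, 0.914, 1.00 and 0.940 in MI1, MI2, MI162 and MI165, and 1.16, 1.11, 1.06 and 1.03 in P695, P697, P699 and P985. The MI ratios all lay below those of sham and Patch. The difference between Patch and MI was 0.26 on the log2 scale, and its two-sided exact permutation p of 0.0286 is the smallest that 4 against 4 libraries allow. Between MI and sham the difference was -0.21 (exact permutation p = 0.133, the smallest for 4 against 2), and -0.21 without MI2. Between Patch and sham it was 0.05 (exact permutation p = 0.667, adjusted 0.75), and 0.02 to 0.08 without 1 library. Adjusted over the 9 ratio tests made, the p was 0.24 for Patch against MI and for MI against sham, and no value in this design could have passed that adjustment.

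Vim over Acta2 was 5.05 and 4.14 in sham. It was 4.14 and 4.47 in MI1 and MI162, the libraries richest in Acta2, and 6.75 and 6.53 in MI2 and MI165, and it ran from 5.63 to 7.78 in Patch. Vim over Tagln ran from 4.27 to 5.42 in sham, 3.31 to 6.17 in MI and 5.80 to 8.25 in Patch. For both ratios all 4 Patch libraries lay above both sham libraries, by 0.58 and 0.63 on the log2 scale (two-sided exact permutation p = 0.133 each, the smallest that 4 against 2 libraries allow; adjusted 0.24). Between Patch and MI the log2 differences of these ratios were 0.35 and 0.61 (exact permutation p = 0.2 and 0.0857, adjusted 0.3 and 0.24), and between MI and sham 0.23 and 0.02 (exact permutation p = 0.533 and 0.933, adjusted 0.686 and 0.933). Without MI2 the log2 differences of Vim over Acta2 and Vim over Tagln were 0.46 and 0.72 between Patch and MI and 0.11 and -0.09 between MI and sham, that of Acta2 over Tagln between Patch and MI was 0.26, and none passed after adjustment. No ratio could have passed that adjustment in this design, with or without MI2. Whether Tagln lay farther apart than Vim between Patch and MI was therefore not decided.

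**Figure D4:**
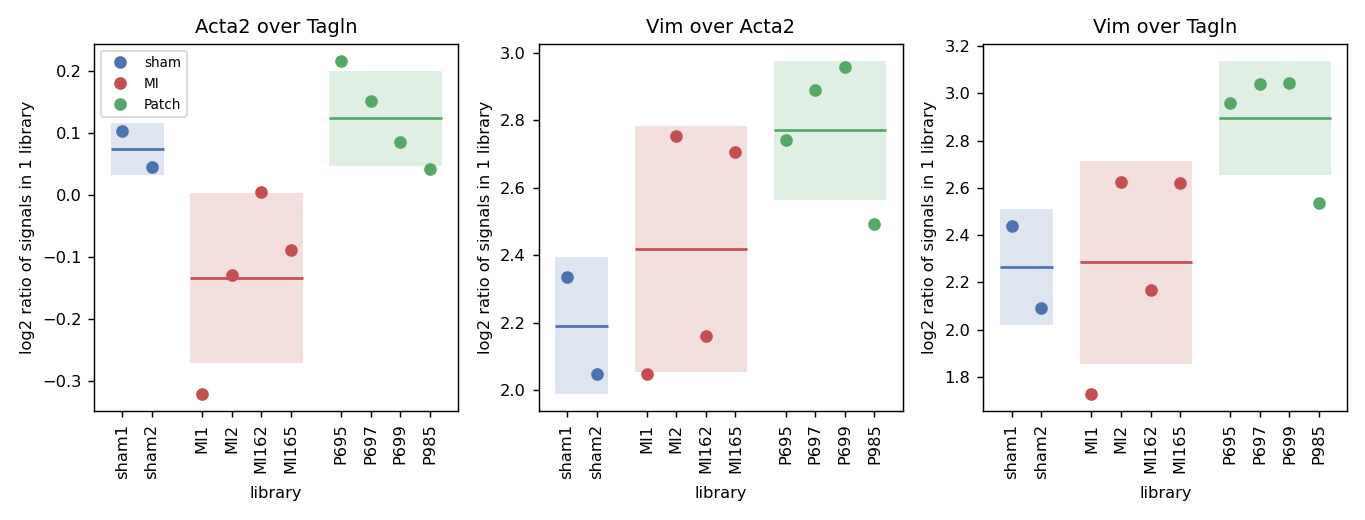
Log2 ratio of the signals of 2 genes within each library, for Acta2 over Tagln, Vim over Acta2 and Vim over Tagln; points are libraries, lines group means and shaded bands the mean ± 1 SD. Acta2 over Tagln is lower in the 4 MI libraries than in all others, and Vim over Acta2 separates MI2 and MI165 from MI1 and MI162.

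The genes whose pattern was most like each of the 3 were sought by the Pearson correlation of log2(signal + 1) over the 10 libraries, among genes whose mean signal was 10 or more. Of 13941 other genes, Tagln ranked 1 by likeness to Acta2 and Acta2 ranked 1 by likeness to Tagln. Vim ranked 143 for Acta2 and 117 for Tagln, while Acta2 and Tagln ranked 672 and 571 for Vim. By the deviations from group means, Tagln still ranked 1 for Acta2 and Acta2 ranked 2 for Tagln, while Vim ranked 348 and 386 for Acta2 and Tagln, which ranked 309 and 311 for Vim. A correlation of at least 0.9 was reached by 62 genes with Acta2, 71 with Tagln and 441 with Vim. Next to Tagln, the gene most like Acta2 was ENSRNOG00000029401 (r = 0.961), whose mean signal ± SD was 154 ± 1.54 in sham, 553 ± 349 in MI and 114 ± 26.0 in Patch. The gene most like Vim was ENSRNOG00000053895 (r = 0.991), at 129 ± 13.2 in sham, 393 ± 105 in MI and 181 ± 63.3 in Patch. These correlations are descriptive, and the genes carry no symbol in the sources used here.

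**Figure D5:**
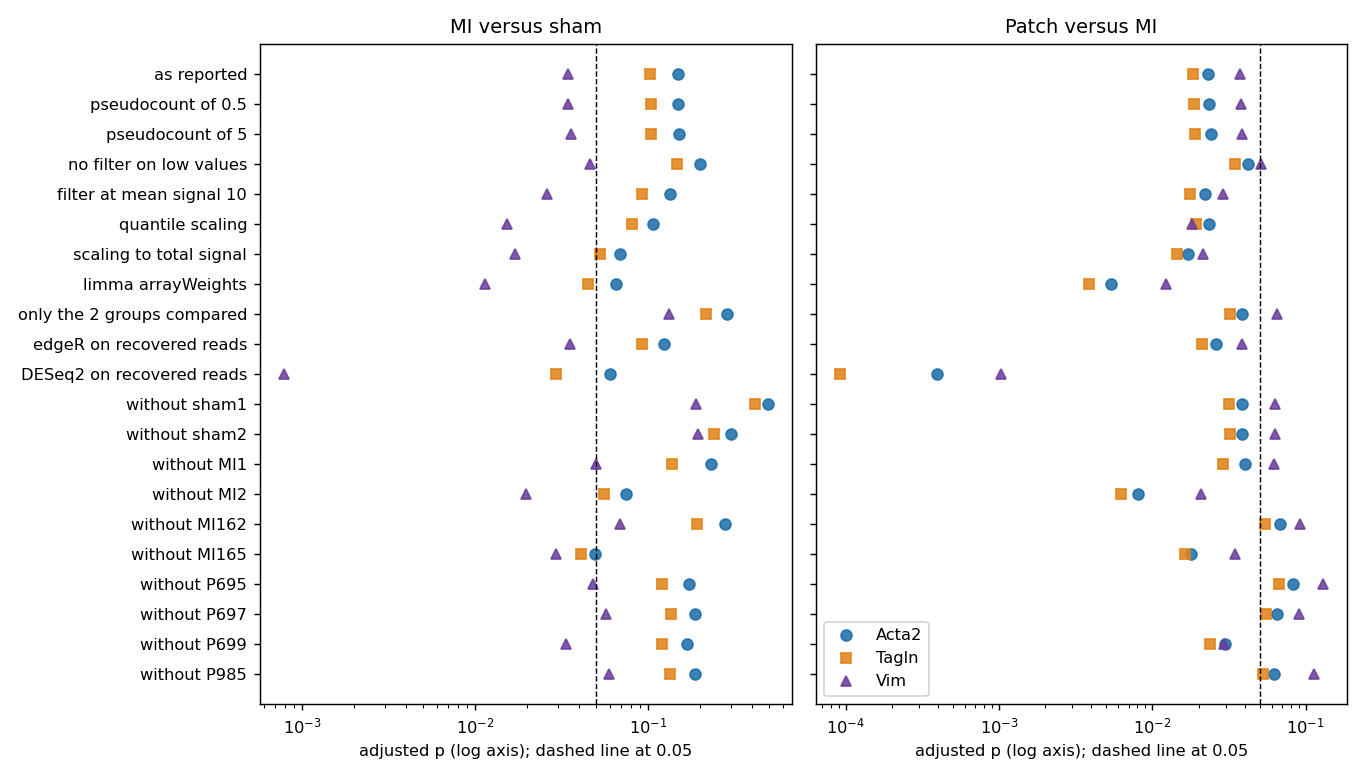
Adjusted p (log axis, dashed line at 0.05) of Acta2, Tagln and Vim in MI against sham (left) and Patch against MI (right), as reported and under the 20 alternatives; settings that name a library leave it out. In Patch against MI, Acta2 and Tagln pass under each of the 10 settings other than those that leave out a single library, and the largest values belong to fits without a library (up to 0.130 for Vim).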

How the data were processed

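RNA was sequenced from poly(A)-selected, fragmented, randomly primed and PCR-amplified libraries of rat heart, per the labels' protocols. HISAT2, SAMtools, featureCounts, DESeq2 and build rn6 are named, without roles or versions, per the submitters' processing notes. The authors deposited 1 table of library-scaled signal for 19955 genes, with no header other than library names. Within each of the 10 libraries used, 100% of values were whole multiples of 1 step (within 0.01 read), worth 0.790 to 1.12 units per read, so whole reads were recovered by division. The names sham, MI and P assigned 2, 4 and 4 columns to groups of 4 labelled samples each. Another 2 columns, ctrl1 and ctrl2, matched no label and were not used. Whether they are further sham samples is not known, and comparisons with sham have 2 libraries where the labels list 4.

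Signals were compared as log2(signal + 1) in limma 3.58.1 (R 4.3.3), with a mean-variance trend and the 3 groups in 1 model. The 17091 genes with a mean signal of 1 or more were tested, and Benjamini-Hochberg adjusted p-values over all of them were called under 0.05. The 1 added to each signal makes differences on this scale slightly understate fold changes. Group means given as a number of times another are arithmetic means of signal. The log2 differences compare means of logs, so they need not match those ratios. Ratios between genes were tested by exact permutation over libraries, and correlations by permutation over all 10 libraries without regard to group (scipy 1.17.1). Alternatives were the pseudocount, the filter, the scaling, sample weights, pairwise fits, edgeR 4.0.16 and DESeq2 1.42.0 on recovered reads, and leaving out each library.

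The 3 genes, the lists and the tests were chosen with earlier results of these data known. Named genes were to be these 3, the 5 genes most like each in pattern (at most 2 IDs without symbols) and members of 7 pathway lists and 6 cell type marker lists, which for heart include cardiomyocyte markers. The table gives IDs without symbols and 0 of them matched the gene table used here, so those lists, and the labelled tissue, were not analysed here. Symbols of the 3 genes come from the rule that chose them. Promoter windows were matched by symbol (2 of 3 genes matched) in a RefSeq table on GRCr8, a build other than that of the counts, and no positions were joined between them.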

Additional observations from a re-analysis of the deposited data

How the results depend on the processing

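No paired analysis was possible because column names could not be matched to labelled replicates: 6 of the 10 carry numbers outside the labels, and the numbers 1 and 2 in sham and MI were not taken as replicate numbers. Leaving out a sham library leaves 1, assumed to vary like the other groups.

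The 3 genes kept their direction in each comparison under all 20 alternatives. In MI against sham, Tagln passed with sample weights (log2 0.89) and in DESeq2 (1.10), and Vim did not pass when the remaining group was left out of the model (0.99), on fewer samples. Acta2 was called in 1, Tagln in 3 and Vim in 14 of 20. Without 1 library the log2 differences ran from 0.53 to 1.00 for Acta2, 0.67 to 1.22 for Tagln and 0.88 to 1.13 for Vim. In Patch against MI, Vim did not pass without the filter or with 2 groups alone (-0.82 in both); Acta2 and Tagln were called in 16 and Vim in 11 of 20. Without 1 library they ran from -1.41 to -0.94, -1.68 to -1.14 and -0.96 to -0.71. In Patch against sham none of the 3 was called, and without 1 library the values ran from -0.55 to -0.27 for Acta2, -0.63 to -0.29 for Tagln (both nearest 0 without sham2) and 0.03 (without P699) to 0.27 (without P695) for Vim. The Vim over Tagln difference between MI and sham, 0.02, had no stable sign: it ran from -0.15 (without sham2) to 0.20 and was -0.09 without MI2 or MI165. The other ratios kept their sign. Vim over Acta2 moved by over 1.5 times, between MI and sham from 0.23 to 0.08, 0.37, 0.35, 0.11 and 0.13 without sham2, sham1, MI1, MI2 and MI165, and between Patch and MI from 0.35 to 0.23 without MI1.

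Of all genes, 2636 were called in MI against sham, 5679 with sample weights, 599 with 2 groups, and 7 (without sham1) to 4979 (without MI2) when 1 library was left out, with 24 without sham2 and 1448 without MI162. Patch against MI had 2251, with weights 5383, with 2 groups 1437, in DESeq2 3679, and 209 (without P695) to 4821 (without MI2), with 292, 611, 649, 1440 and 1446 without P985, P697, MI162, sham2 and sham1. Patch against sham had 0, with weights 10, in DESeq2 15, and 0 to 2 (2 without P695). The causes were not tested. With 2 groups alone and no change of scaling, 73% of the MI against sham calls were higher, where 47.3% were as reported. Scaling to total signal moved the median log2 difference of all genes to 0.24 in MI against sham, with 73.5% of calls higher. In Patch against MI it moved the median to -0.17, with 30.2% of calls higher where 58.6% were. Relative to that shift Acta2, Tagln and Vim lay at 0.76, 0.97 and 0.99, then at -1.19, -1.44 and -0.83. With 906 to 27646 reads per value, counting error is small beside the spread between libraries of a group, except for Vim in sham, where both libraries lay within it. PCR copies were not marked, which this does not cover.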
